A study of Mus musculus with 6 samples.

Results

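Trbv31 is the mouse T-cell receptor beta variable (V) segment that lies apart from all the others, at the far end of the locus. It was followed here in T follicular regulatory (Tfr) cells, CD4 T cells of B-cell follicles that express Foxp3. All listed rearrangements whose V call is TCRBV31 were taken, and every one of them names the same allele, TCRBV31-01*01. They are 202 of 4409 listed rearrangements (195 of 4238 distinct ones) and 303 of 7043 templates, 4.30% (95% Wilson interval 3.85 to 4.80), for 1 of 29 V segments found. Tfr cells had been sorted from spleens of 3 mice of genotype Foxp3GFP, a reporter of Foxp3. There is a superior and an inferior sample of every mouse, so each group has 3 samples. What these titles stand for is not explained in the labels, which also give no age or treatment. Genomic DNA was amplified with a commercial kit for mouse TCRB (immunoSEQ, survey resolution), and the samples hold 667 to 1855 templates, the deposited count per rearrangement. The files do not say whether that count is of input molecules or of reads. The DNA of a cell holds a rearranged allele once, however strongly the gene is expressed.

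A beta chain gene is built in the thymus by joining a D to a J segment and then a V to the DJ. There are 2 clusters, each with 1 D segment, a row of J segments and a constant gene: Trbd1 with the TRBJ1 segments and Trbc1, then Trbd2 with the TRBJ2 segments and Trbc2. Because Trbd1 lies ahead of both J clusters it can join either, whereas Trbd2 lies behind TRBJ1 and by deletion joins TRBJ2. Most V segments lie ahead of the clusters and join by deletion of the DNA between. Trbv31 is known to lie behind Trbc2 in the opposite orientation and to join by inversion, which keeps the intervening DNA in the chromosome. The stretch encoded across the joint is the third complementarity-determining region (CDR3), the part of the chain that varies most.

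In RefSeq's GRCm38.p6 gene table (build mm10), Trbv31 lies on chromosome 6 at 41557693 to 41558371. Trbd1 is at 41533201 to 41533212, Trbd2 at 41542163 to 41542176, Trbj2-7 at 41543810 to 41543856 and Trbc2 at 41546730 to 41548181. Trbv31 therefore starts 9.51 kb beyond Trbc2, 13.8 kb beyond Trbj2-7, 15.5 kb beyond Trbd2 and 24.5 kb beyond Trbd1. Of the 35 V segments in that table, 34 start before Trbd1 and only this 1 lies after Trbc2. The nearest one on the other side that was also found here, Trbv30, ends 251 kb before Trbd1, and the farthest, Trbv1, ends 641 kb before it. The table gives no strand, so the orientation is background and was not read from it.

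Each listed rearrangement is a read of 87 bases that runs from the V segment to just short of the last CDR3 residue. The first line below shows the commonest bases at the start of the CDR3 and ahead of it, with 33 bases of framework in lower case and the first 5 CDR3 codons in capitals. The framework run stands in 195 of 202 rearrangements (96.5%), and the whole stretch in 53 of 202 (26.2%). The next 4 lines are reads of the 3 largest clonotypes and of 1 that both samples of a mouse held, with the CDR3 in capitals.
Commonest Trbv31 start: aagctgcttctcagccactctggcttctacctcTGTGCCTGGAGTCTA
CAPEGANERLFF with Trbj1-4: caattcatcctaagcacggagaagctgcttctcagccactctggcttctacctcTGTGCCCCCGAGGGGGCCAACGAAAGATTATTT
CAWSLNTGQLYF with Trbj2-2: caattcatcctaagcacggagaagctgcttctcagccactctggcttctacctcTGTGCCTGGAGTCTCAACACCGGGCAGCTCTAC
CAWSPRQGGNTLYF with Trbj1-3: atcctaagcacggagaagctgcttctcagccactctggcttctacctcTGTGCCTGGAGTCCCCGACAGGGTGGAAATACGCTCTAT
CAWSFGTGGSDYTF with Trbj1-2: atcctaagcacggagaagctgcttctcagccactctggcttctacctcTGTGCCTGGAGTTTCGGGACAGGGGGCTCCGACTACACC

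Trbv31 took a similar share of templates in every mouse. In the superior samples of mice 1, 2 and 3 it held 34 of 667 templates (5.10%, 95% Wilson interval 3.67 to 7.04), 57 of 1095 (5.21%, 4.04 to 6.68) and 41 of 1136 (3.61%, 2.67 to 4.86). In the inferior samples it held 53 of 1370 (3.87%, 2.97 to 5.03), 32 of 920 (3.48%, 2.47 to 4.87) and 86 of 1855 (4.64%, 3.77 to 5.69). The groups overlap: superior was the higher sample in mice 1 and 2 and the lower in mouse 3. The means were 4.64% ± 0.892 (SD, n = 3) and 3.99% ± 0.589 (SD, n = 3). With both samples of a mouse summed, the shares were 4.27%, 4.42% and 4.25%, a spread of only 0.0923 percentage points (SD, n = 3). These intervals, like all others here, cover counting error only. Within a sample Trbv31 ranked between the seventh and the twelfth of the V segments listed.

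By edgeR's quasi-likelihood test the superior to inferior difference was 0.18 on the log2 scale (SE 0.24), with an adjusted p of 0.852. At the 0.05 threshold this test called 0 of 23 V segments (0%), with 1 segment at an unadjusted p under 0.05, and DESeq2 called 0 (0 unadjusted). By the same fit the values were 0.09 (SE 0.21) for Trbv1, the V segment farthest ahead of the clusters, 0.50 (SE 0.37) for Trbv29 and -0.02 (SE 0.58) for Trbv30, the nearest found. None of the 3 passed the test.

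**Figure D1:**
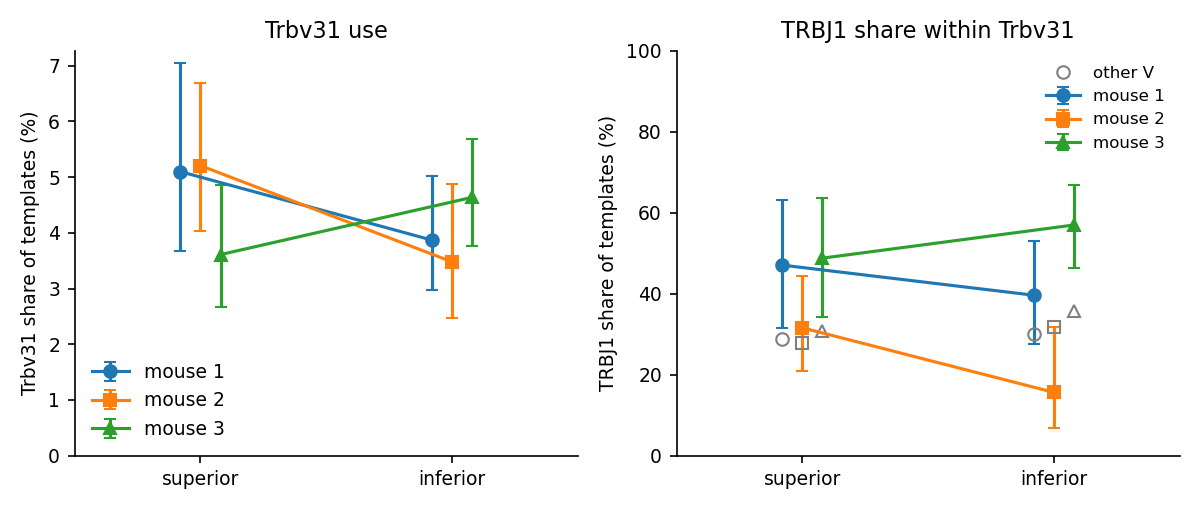
Left, the Trbv31 share of all templates (percent) in the superior and inferior sample of each mouse. Right, the share of Trbv31 templates that carry a TRBJ1 segment, with all other V segments as open grey symbols. Bars are 95% Wilson intervals and lines join the samples of a mouse. The mice cross between the groups on the left, and on the right mouse 2 lies lowest in both groups.

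Among Trbv31 templates the TRBJ1 cluster was used more often than among the other V segments in 2 of 3 mice, a difference that did not pass the test. In the superior samples of mice 1, 2 and 3, 16 of 34 (47.1%), 18 of 57 (31.6%) and 20 of 41 (48.8%) Trbv31 templates carried a TRBJ1 segment. In the inferior samples the counts were 21 of 53 (39.6%), 5 of 32 (15.6%) and 49 of 86 (57.0%). All other V segments together lay between 27.8% and 35.7% in the 6 samples. Both samples of mice 1 and 3 stand above the other V segments of the same sample, as does the superior sample of mouse 2, and only the inferior sample of mouse 2 stands below. Summed by mouse, Trbv31 had 42.5%, 25.8% and 54.3% TRBJ1 (mean 40.9% ± 14.3, SD, n = 3), against 29.7%, 29.6% and 33.8% (mean 31.03% ± 2.41, SD, n = 3). Pooled over mice these are 129 of 303 templates (42.6%, 37.1 to 48.2) against 31.4%. Counted once per rearrangement, they are 77 of 202 (38.1%) against 31.8%.

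The fit across all V segments, with the mouse in the model, gave Trbv31 a TRBJ1 over TRBJ2 ratio of 0.60 on the log2 scale (SE 0.33), with an adjusted p of 0.42. It was the third highest of 23 segments. The fit called 0 of 23 (0%), with 1 at an unadjusted p under 0.05, and DESeq2 also called 0 (0 unadjusted). Among the 20 other V segments with 50 or more templates, pooled Trbv31 lay above 19 and below Trbv20 (43.1%). Within mice 1, 2 and 3 it lay above 17, 9 and 20 of them. Counting each rearrangement once, with repeats merged (those of the same V, J and CDR3 bases in a sample taken as 1), it was 0.35 (adjusted p = 0.395). The value rests on single mice: without mouse 2 it was 0.98 (adjusted p = 0.0819), and without mouse 3 it was 0.27 (adjusted p = 0.854). Between superior and inferior samples the TRBJ1 share was 42.5% ± 9.47 against 37.4% ± 20.8 (SD, n = 3 each), and a two-sided exact permutation test gave p = 0.8, where the smallest possible p is 0.1.

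Single J segments were uneven between mice. Trbj2-7 was the most used, with 75 of 303 Trbv31 templates (24.8%). Its share was 25.3%, 35.96% and 16.5% in mice 1, 2 and 3, against 32.7%, 36.9% and 28.6% among the other V segments, so it was the lower of the pair in 3 of 3 mice. Trbj1-2 came next with 34 templates (11.2%), at 14.9%, 2.25% and 14.96%, against 5.05% ± 1.43 (SD, n = 3) among the others. Mice 1 and 3 stand well above the other V segments for Trbj1-2 and mouse 2 stands below. Trbj2-5 had 32 templates (10.6%), Trbj1-4 had 28 (9.24%) and Trbj1-3 had 24 (7.92%), none of these last in mouse 1. Trbj2-1 had 21 (6.93%), Trbj1-1 had 20 (6.60%), Trbj2-2 had 18 (5.94%) and Trbj1-5 had 17 (5.61%). The Trbj1-5 share was 5.75%, 5.62% and 5.51% in the mice and above that of the other V segments in each (4.98%, 3.33% and 4.97%). These 17 templates come from 7 rearrangements, too few for the near equality of the mice to be read as a trait. Trbj2-3 and Trbj2-4 had 14 each (4.62%) and Trbj1-6 had 6 (1.98%). Trbj1-7 and Trbj2-6 had 0 templates, and among the other V segments they had 4 and 2.

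Tested against all other V segments, 0 of 12 J segments were called for Trbv31 by edgeR (0%), with 0 at an unadjusted p under 0.05, and DESeq2 gave 0 and 0. Trbj1-2 had the highest value, 0.999 on the log2 scale (SE 0.65), and Trbj2-4 the lowest, -0.52 (SE 0.58). Trbj2-7 was at -0.39 (SE 0.46) and Trbj1-5 at 0.36 (SE 0.55). Each of these J segments had an adjusted p of 0.966.

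**Figure D2:**
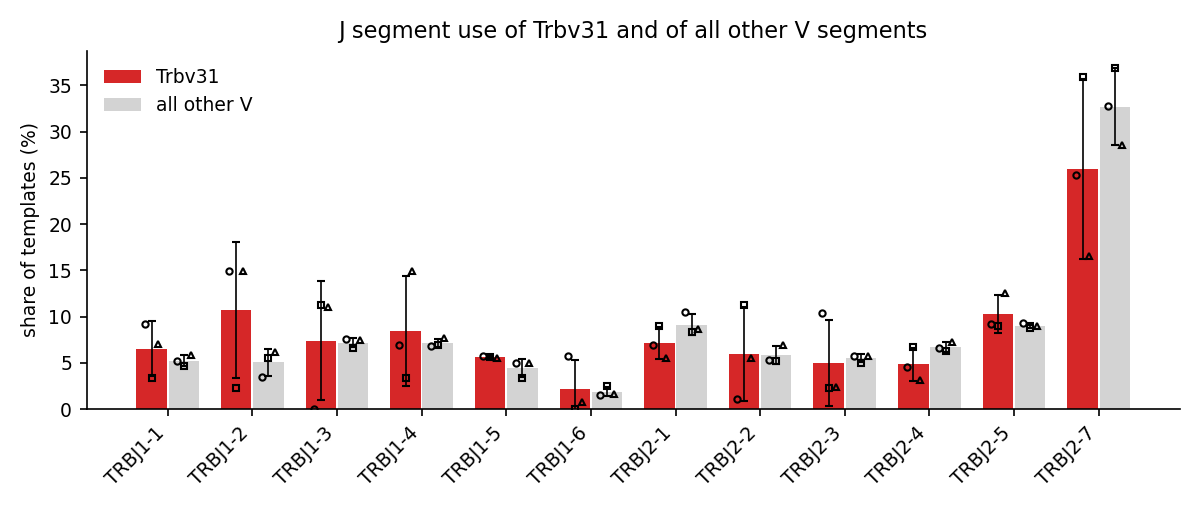
Share of templates (percent) carried by each J segment with 10 or more templates, for Trbv31 (red) and all other V segments (grey). Bars are means of 3 mice, whiskers are SD, and circles, squares and triangles are mice 1, 2 and 3. Trbj2-7 is the tallest pair and is lower for Trbv31 in each mouse, while Trbj1-2 is high in mice 1 and 3 and low in mouse 2.

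The D segments showed a further difference in proportions. Among templates with a TRBJ2 segment and a resolved D segment, where either D segment could have been used, Trbv31 carried Trbd1 in 31 of 144 (21.5%, 95% Wilson interval 15.6 to 28.9) and the other V segments in 1645 of 3869 (42.5%, 41.0 to 44.1). By mouse the Trbv31 counts were 10 of 40 (25.0%), 11 of 51 (21.6%) and 10 of 53 (18.9%), a mean of 21.8% ± 3.07 (SD, n = 3). The other V segments had 40.7%, 41.2% and 44.8% (42.3% ± 2.23, SD, n = 3). The ranges of the mice do not overlap. Ranges that do not overlap are not particular to Trbv31. In mice 1, 2 and 3, Trbv3 had 61.9%, 58.9% and 47.2%, all above the 40.7% to 44.8% of the other V segments. Trbv12-1 had 33.3%, 22.7% and 33.3% of 21, 22 and 27 resolved templates, all below it. Trbv26 lay above that range in each mouse and Trbv14, on 13, 19 and 11 resolved templates, below it. Pooled, Trbv12-1 had 30.0% and Trbv14 27.9%, both nearer to that range than Trbv31. By sample, Trbv31 had 3 of 16 (18.8%), 9 of 25 and 1 of 18 (5.56%) in the superior samples of mice 1, 2 and 3, and 29.2%, 7.69% and 25.7% of 24, 26 and 35 in the inferior samples. The other V segments had 34.7%, 43.9% and 44.6% in the superior samples and 43.7%, 37.9% and 44.9% in the inferior ones, so Trbv31 was the lower of the pair in 6 of 6 samples.

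Across V segments the difference did not pass the test. The Trbd1 over Trbd2 ratio of Trbv31 was -1.35 on the log2 scale (SE 0.62), with an unadjusted p of 0.0357 and an adjusted p of 0.517 by edgeR. It was the second lowest of 22 segments, and 0 of 22 were called (0%), with 2 at an unadjusted p under 0.05. DESeq2 called 0, with 1 unadjusted. In pooled proportions Trbv31 was the lowest of the 21 V segments with 50 or more templates, next to Trbv4 at 24.0%, where the median of the other 20 was 42.1% and the highest, Trbv26, had 60.3%. Within mice 1, 2 and 3, however, 5, 1 and 1 of these 20 lay below it. All 20 spanned a wider range between mice than Trbv31 did, Trbv26 (56.5% to 62.9%) only slightly wider. Several of them rested on fewer resolved templates. Trbv29 was at 1.20 (SE 0.70), Trbv1 at -0.06 (SE 0.60) and Trbv30 at -0.93 (SE 1.08), none past the threshold.

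**Figure D3:**
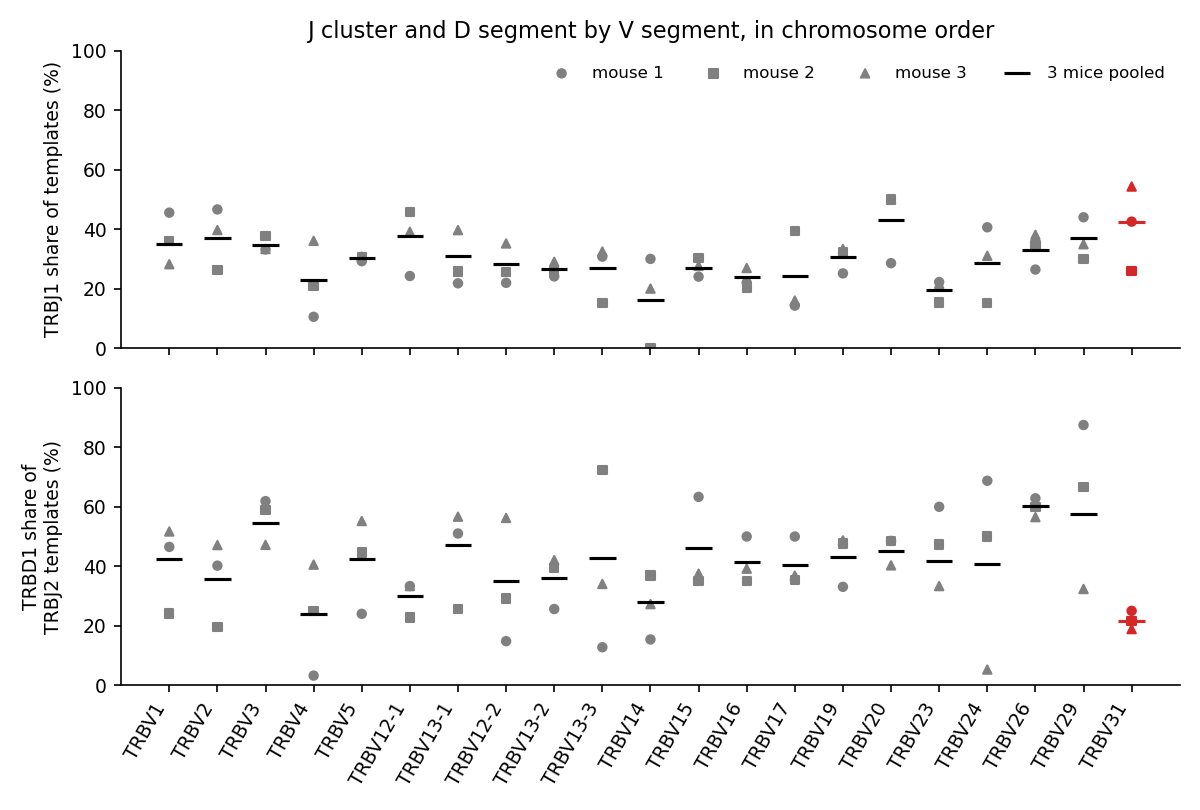
For each V segment with 50 or more templates, in chromosome order, the TRBJ1 share of templates (top, percent) and the Trbd1 share of resolved TRBJ2 templates (bottom, percent). Points are mice and bars are the 3 mice pooled, with Trbv31 in red. Trbv31 is near the top in the upper panel, with its mice far apart, and has the lowest pooled bar in the lower panel, with its mice close together.

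The lower Trbd1 share of Trbv31 was most marked with Trbj2-7, the last J segment of the cluster. There 8 of 69 resolved Trbv31 templates (11.6%, 5.99 to 21.2) carried Trbd1, against 44.2% for the other V segments. With Trbj2-5 it was 6 of 27 (22.2%) against 35.3%, and with Trbj2-1 it was 5 of 15 (33.3%) against 37.7%. With Trbj2-4 it was 5 of 12 (41.7%) against 42.1%, close to equal. With Trbj2-3 it was 3 of 11, against 42.7%, and with Trbj2-2 it was 4 of 10, against 51.9%. No test of a difference between J segments was made. Counted once per rearrangement over all TRBJ2, Trbv31 had 22 of 107 (20.6%) against 40.2%, about the same as by templates. Over all Trbv31 templates, 33.0% were Trbd1 with TRBJ1 (21.7% among the others), 10.2% were Trbd1 with TRBJ2 (24.4%) and 37.3% were Trbd2 with TRBJ2 (33.0%). Unresolved D calls are part of these totals, and their share differed. With TRBJ1 they made up 13.2% of Trbv31 templates against 25.7% of the others, and with TRBJ2 17.2% against 16.2%. Among resolved TRBJ1 templates, Trbd1 made up 89.3% for Trbv31 and 93.0% for the others.

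A D call rests on the few bases left between the V and J ends. It was unresolved for 30 of 202 Trbv31 rearrangements (14.9%) and 19.9% of the others. In TRBJ1 rearrangements, which lie ahead of Trbd2, 12 of 112 resolved Trbv31 templates (10.7%, 6.24 to 17.8) still carried a Trbd2 call, against 7.00% for the other V segments. Counted per rearrangement these are 5 of 65 (7.69%) against 8.06%.

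The letters of the joint showed a difference in the same direction without the deposited D calls for Trbv31. D calls rest on these same bases, so the letters are not separate support for the calls. The 6 letters ACAGGG went with Trbd1 calls and ACTGGG, which differs in a single base, with Trbd2 calls in TRBJ2 rearrangements of the other V segments. They were searched in the CDR3 on the strand that was read. Of 125 Trbv31 rearrangements with TRBJ2, 6 held the first and 43 the second. Among 2856 of the other V segments the numbers were 397 and 763. The first thus made up 12.2% of rearrangements with either for Trbv31 and 34.2% for the others, with 0 of 11, 3 of 20 and 3 of 18 for Trbv31 in mice 1, 2 and 3. The lines below show CDR3s of named Trbv31 clonotypes that hold these letters, in capitals. The first 2 hold those that went with Trbd1 and the last 4 those that went with Trbd2. Those first 2 are TRBJ1 joints, so they lie outside the TRBJ2 rearrangements counted above.
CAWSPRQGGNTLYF with Trbj1-3: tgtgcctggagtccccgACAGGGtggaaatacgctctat
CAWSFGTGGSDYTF with Trbj1-2: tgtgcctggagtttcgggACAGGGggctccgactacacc
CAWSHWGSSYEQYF with Trbj2-7: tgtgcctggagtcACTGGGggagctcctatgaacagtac
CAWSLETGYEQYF with Trbj2-7: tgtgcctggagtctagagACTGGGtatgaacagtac
a joint shared within mouse 2, with Trbj2-7: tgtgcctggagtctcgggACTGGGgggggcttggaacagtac
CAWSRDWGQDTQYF with Trbj2-5: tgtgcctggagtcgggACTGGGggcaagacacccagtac

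The start of the CDR3, which V segments encode, differed from that of every other V segment, as part of what the V call reads. It opened with CAW in 192 of 202 rearrangements (95.0%, 91.1 to 97.3) and with CAWS in 169 (83.7%). Of 4166 rearrangements of the other V segments 0 opened with CAW, which allows a share of up to 0.0720%. Conversely 87.2% of those opened with CAS and 0 of the 202 Trbv31 rearrangements did, which allows up to 1.49%. By mouse the CAW share was 95.6%, 98.1% and 92.5%. The 10 exceptions were CAP in 3 rearrangements with 15 templates, CAR and CAK in 2 each, and CAC, CAG and CAL in 1 each.

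How far the members share their first CDR3 bases can be followed in the first line of sequence shown earlier. All 202 rearrangements began with TGTGCC, 192 with TGTGCCTGG, 143 (70.8%) with TGTGCCTGGAGT and 53 (26.2%) with TGTGCCTGGAGTCTA, the longest run counted. No germline Trbv31 sequence was used here, so where the V segment ends, and which bases came from it, from a D segment or from added bases, was not determined. For this longest run the mice were at 27.9%, 29.6% and 22.5%. At position 4 of the CDR3 the residue was S in 169 rearrangements, R in 11 and T in 8. Position 5 was L in 96 (47.5%), R in 26, P in 24, and G and Q in 13 each.

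CDR3 length of Trbv31 was slightly below that of the other V segments, by less than the threshold of the test required. Its mean was 13.5 residues over 202 rearrangements, within a range of 9 to 19, against 13.8. By mouse the means were 13.25, 13.80 and 13.61 (13.6 ± 0.278, SD, n = 3), against 13.77, 13.83 and 13.81. Mouse 1 is the lowest and mouse 2 differs from the other V segments by very little. Lengths of 12 or fewer residues made up 50 of 202 (24.8%, 19.3 to 31.1), against 16.3%, and lengths of 16 or more made up 11 (5.45%), against 9.87%.

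The limma fit on per-mouse differences gave -0.25 residues (SE 0.12), with an adjusted p of 0.098. In that fit 8 of 22 V segments were called (36.4%), 4 longer and 4 shorter than the rest, and Trbv31 was the fifth lowest. Trbv30 (-0.80), Trbv20 (-0.74), Trbv15 (-0.41) and Trbv29 (-0.30) were the 4 called shorter, and Trbv1 was called longer (0.41). Weighted by templates, the Trbv31 difference was -0.39 residues with an adjusted p of 0.0392 by limma, so this choice decides the call.

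In TRBJ1 rearrangements the difference in length was larger than in TRBJ2 rearrangements. With TRBJ1 the Trbv31 means were 13.10, 13.27 and 13.15 residues in mice 1, 2 and 3, against 13.72, 13.74 and 13.65, and these ranges do not overlap. Standing apart from the rest in length was common, as 8 of 22 V segments were called over all J segments. The split by J cluster was added after the lengths were seen, and limma gave Trbv31 with TRBJ1 -0.53 residues (SE 0.21) with an adjusted p of 0.0777. In TRBJ2 rearrangements the difference was -0.09 residues (SE 0.17), with an adjusted p of 0.925. Whether the J clusters differ in this was not tested. Of 77 TRBJ1 rearrangements, 24 (31.2%) had 12 or fewer residues and 1 had 16 or more. Between superior and inferior samples the mean length was 13.4 ± 0.277 against 13.7 ± 0.322 residues (SD, n = 3 each). Superior was the shorter in 3 of 3 mice, with p = 0.5 by the exact permutation test. With repeats merged, the difference was -0.080 residues (exact permutation p = 0.8), and superior was the longer in 1 mouse.

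**Figure D4:**
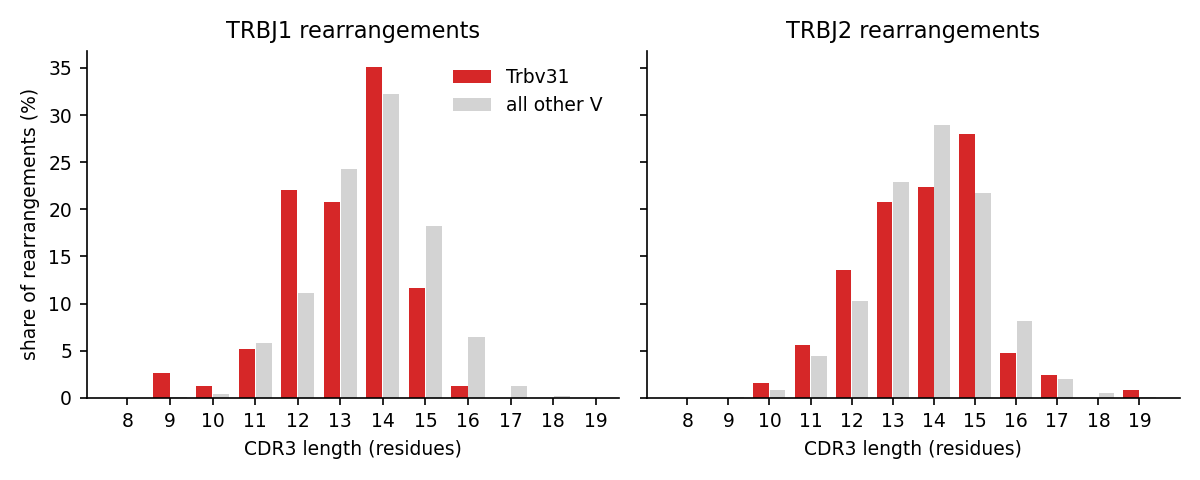
Share of rearrangements (percent) by CDR3 length in residues, for Trbv31 (red) and all other V segments (grey), 3 mice pooled, in TRBJ1 (left, 77 Trbv31 rearrangements) and TRBJ2 (right, 125). The red bars exceed the grey at 12 residues and lie below them at 15 and 16 in the left panel.

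Most Trbv31 rearrangements were seen once. A single template was counted for 140 of 202 (69.3%, 62.6 to 75.3), against 65.1% of the others, and 2 templates for 44. A further 14 had 3 or 4 templates and 4 had 5 to 9. No Trbv31 rearrangement reached 10 in a sample, which allows a share of up to 1.49%, and among the others 14 of 4207 did. Templates per rearrangement were 1.28, 1.65 and 1.59 in mice 1, 2 and 3, against 1.60, 1.61 and 1.60, so only mouse 1 stands clearly below. The limma value was -0.10 on the log2 scale (SE 0.09), adjusted p 0.458, where 4 of 22 V segments were called (18.2%), 1 of them larger, Trbv2 (0.71). With repeats merged, the limma value for Trbv31 was -0.20 (unadjusted p = 0.0286, adjusted p = 0.0786). Superior and inferior samples had 1.48 ± 0.185 and 1.51 ± 0.212 templates per rearrangement (SD, n = 3 each; exact permutation p = 1). Trbv31 rearrangements with TRBJ1 held 1.28, 1.53 and 2.09 templates in the 3 mice, and those with TRBJ2 held 1.28, 1.69 and 1.23.

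The largest Trbv31 clonotype was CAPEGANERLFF with Trbj1-4, the second sequence shown at the start, which lacks the W at position 3. It was found only in mouse 3. Its superior sample held 6 templates and its inferior sample 8, and in the latter it made up 9.30% of Trbv31 templates and 0.431% of all (0.219 to 0.849). Without it, the TRBJ1 share of Trbv31 in mouse 3 was 48.7% rather than 54.3%. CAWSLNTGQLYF with Trbj2-2 had 8 templates in the superior sample of mouse 2, 14.0% of Trbv31 there, and 0 in the inferior one. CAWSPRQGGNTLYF with Trbj1-3 had 7 in mouse 3 inferior and 0 in mouse 3 superior. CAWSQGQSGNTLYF with Trbj1-3 had 5 in the superior sample of mouse 2, from 2 nucleotide forms. These forms differ by a single base near the J end of the CDR3 and a single base ahead of the CDR3. Mouse 1 had no clonotype above 3 templates. Its 3-template clonotypes were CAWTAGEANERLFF, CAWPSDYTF, of only 9 residues, and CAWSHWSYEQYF in the superior sample and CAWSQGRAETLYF in the inferior one.

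Clonotypes with all their 4 templates in a single sample were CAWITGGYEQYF, in the superior sample of mouse 2, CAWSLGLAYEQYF, in its inferior one, and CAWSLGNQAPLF, from mouse 3 inferior. The last of these carries a Trbd2 call with Trbj1-5. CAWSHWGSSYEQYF and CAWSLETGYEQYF had 3 templates each in the inferior sample of mouse 2. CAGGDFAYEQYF, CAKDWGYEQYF and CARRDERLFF, which lack the W at position 3, had 2 each.

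Few Trbv31 rearrangements were shared between the superior and inferior sample of a mouse, in about the proportion of the other V segments. They were 0 of 68 distinct rearrangements in mouse 1, which allows up to 4.41%, 3 of 51 in mouse 2 (5.88%) and 4 of 76 in mouse 3 (5.26%). Summed, 7 of 195 (3.59%, 1.75 to 7.22) were shared, against 155 of 4052 (3.83%). Besides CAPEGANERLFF, mouse 3 shared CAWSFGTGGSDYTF (2 and 2 templates), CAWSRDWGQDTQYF and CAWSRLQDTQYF (1 and 1 each). Mouse 2 shared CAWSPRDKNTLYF (1 and 1) and a pair of 15-residue CDR3s with Trbj2-7 and Trbd2, 1 with 2 and 2 templates and the other with 1 and 1. Since most rearrangements were seen as a single template, most could be missed in the other sample at these depths.

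No Trbv31 rearrangement was found in more than 1 mouse. At the nucleotide level 0 of 195 were, which allows up to 1.54%, and 0 of 183 clonotypes defined by CDR3 residues and J segment, which allows up to 1.64%. Among the other V segments 9 of 4043 and 30 of 3568 (0.841%) were found in more than 1 mouse, shares that lie below those limits. None of the 183 Trbv31 CDR3s was listed under another V segment. For those that open with CAW this was given in advance, since 0 of 4166 rearrangements of the other V segments do. Within Trbv31, 4 clonotypes had more than 1 nucleotide form of the CDR3: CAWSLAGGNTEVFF with Trbj1-1, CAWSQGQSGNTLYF with Trbj1-3, and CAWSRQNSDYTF and 1 more with Trbj1-2. The 4 all carry TRBJ1 segments, against 77 of 202 Trbv31 rearrangements (38.1%), and are too few to show a trait of TRBJ1. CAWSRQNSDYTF had a form in each sample of mouse 3. A further 8 pairs of listed rearrangements in the same sample had the same CDR3 bases and differed by 1 or 2 bases outside it. Whether these pairs, or the 2 forms of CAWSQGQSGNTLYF, are separate joints or copies with a changed base was not tested.

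The V segments whose share over the 6 samples moved most like that of Trbv31 were Trbv16 (Pearson r 0.72), Trbv1 (0.70) and Trbv14 (0.69), among 20 with 50 or more templates. The 6 points share their libraries and totals, and shares within a sample sum to a fixed whole. By the Jensen-Shannon distance of pooled J segment use over 14 J segments, Trbv3 (0.136), Trbv19 (0.145) and Trbv26 (0.164) were the closest, and Trbv17 (0.335) was the farthest. These had 721, 692, 284 and 74 templates. Counting error raises this distance where templates are few, and no correction was made for it, so the order is not one of J use alone.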

How the data were processed

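The deposited tables list nucleotide rearrangements with a whole-number count and a productive frequency, a fraction equal to that count over its sample's sum. The files do not say whether counts are templates or reads, and the word templates is used for them here. Per the submitters' processing notes the build is mm10. Which aligner, caller and filter settings were used is not given in the sources used here. No CDR3 holds a stop codon. CDR3s without a starting cysteine (41 listed, 0 of Trbv31) were left out of CDR3 features, and unresolved J or D calls out of J or D shares.

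Templates were summed per segment and tested with edgeR 4.0.16 (quasi-likelihood, totals as library size, common dispersion, 10 or more templates). Length and templates per rearrangement were tested with limma 3.58.1 on per-mouse differences (V segments with 5 or more rearrangements in every mouse). Benjamini-Hochberg adjustment ran over all segments tested, at 0.05. Both steps were tested on simulated data. The simulated spread was fixed in advance and the simulated counts held no differences between mice. They therefore do not show how large a change these samples could reveal. DESeq2 1.42.0 was an alternative. R 4.3.3, Python 3.11.15, pandas 2.3.3, numpy 2.4.6 and scipy 1.17.1 were used. Wilson intervals are at 95%, and a count of 0 allows 3 counts.

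The 2 samples of a mouse share its number in the titles, so they are paired. Their deviations from group means correlated at 0.07, 0.67 and -0.35 over V segments and at 0.11, 0.94 and 0.76 over J segments for mice 1, 2 and 3. The named segments are Trbv31, Trbv1, Trbv29, Trbv30, the likest segments, and any called by the J cluster or D test (0). Named clonotypes are the 3 largest of a sample, those of 5 or more templates in a mouse and those in both samples of a mouse. Other segments and clonotypes were named after their values were seen. Members, lists and tests were chosen with earlier results of these data known. P-values rest on 3 mice or samples. In the main limma fits the spread was pooled over all segments, so each segment had the same SE. In edgeR the dispersion was common to all segments. The edgeR and limma p-values therefore do not measure the spread of Trbv31 alone.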

Additional observations from a re-analysis of the deposited data

How the results depend on the processing

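Among the results tested with edgeR or limma, 1 alternative made a call that the values reported above did not: CDR3 length weighted by templates (-0.39 residues, adjusted p = 0.0392 by limma). The cause was not tested. The exact tests of superior against inferior samples cannot reach 0.05, so their p-values say nothing about stability. The count of J segments called was 0 under its 12 alternatives, with a lowest adjusted p of 0.057 by edgeR. The 6 values that turned direction, none of them called, are among those that follow. The superior to inferior share was -0.00055 (log2) with repeats merged and counted once. Templates per rearrangement in superior minus inferior was 0.0082 with repeats merged. Leaving out each mouse in turn, the share ranged from -0.0037 (without mouse 2) to 0.48 (log2), the TRBJ1 share difference from -0.38 (without mouse 2) to 11.7 percentage points, templates per rearrangement in superior minus inferior from -0.072 to 0.061 (without mouse 3), and that of Trbv31 against other V segments from -0.16 to 0.010 (without mouse 1, log2). The length difference from other V segments ranged from -0.36 to -0.12 residues (without mouse 1), and the Trbd1 over Trbd2 ratio over all 12 alternatives from -1.52 to -1.15 (log2), none past the threshold. With the mouse as a block, the share difference was 0.17 (adjusted p = 0.861), and sign flips within pairs gave an exact p of 0.75 for the TRBJ1 share, 0.25 (the smallest possible) for length and 1 for templates per rearrangement. Without the block, the J cluster ratio was 0.61 (adjusted p = 0.209) and the D ratio -1.35 (adjusted p = 0.114) by edgeR, with 0 J segments called. Neither choice changed a call. With 303 templates over 6 samples, and 16 to 35 resolved D calls with TRBJ2 per sample, single J and D shares are known only to wide intervals.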
